A study of Mus musculus with 8 samples.

Results

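The 9 genes described here encode receptors that signal through inhibitory G proteins. They are the cannabinoid receptor gene Cnr1, the alpha-2 adrenergic receptor genes Adra2a, Adra2b and Adra2c, the serotonin receptor genes Htr1a, Htr1b, Htr1d and Htr1f, and the dopamine receptor gene Drd2. They were chosen by name, out of 55573 genes in the count table. Of these 9 genes, 7 passed the filter on low counts that left 22013 genes to test, and Htr1a and Htr1f did not pass it. The RNA came from C low-threshold mechanoreceptors (C-LTMRs) of adult mice, isolated by fluorescence-activated sorting for GFP. The animals were Bhlha9 knockouts (KO) or wild type (WT). Bhlha9 encodes a transcription factor of the basic helix-loop-helix class, and the study's title concerns temperature choice and formalin pain in males and females. The groups were male KO, male WT, female KO and female WT, with 2 libraries each. Sex was read from the M or F in the library titles and was not checked here with sex-linked genes. Per the labels all 4 groups were sorted for GFP. The labels used here do not name the gene that carries the GFP, the number of animals behind a library, or whether the knockout is restricted to a cell type.

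C-LTMRs are unmyelinated touch neurons of the dorsal root ganglia. They respond to gentle, slow skin contact, and in the mouse they are known for tyrosine hydroxylase (Th), the secreted protein Fam19a4 and the vesicular glutamate transporter Slc17a8. Receptors of the Gi/o class lower cyclic AMP when their ligand binds. The freed G protein beta-gamma subunits also open inwardly rectifying potassium channels and slow the calcium channels that drive transmitter release. On sensory neurons such receptors are best known for dampening release at the central terminals, where endocannabinoids, noradrenaline, serotonin and dopamine reach them.

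Bhlha9 itself was the check of the genotype. It stood at 0.156 and 0.278 CPM (counts scaled to a common library size) in male KO libraries, against 151.5 and 161 CPM in male WT libraries. In females it stood at 0.470 and 0.253 CPM in KO libraries, against 139.9 and 127.4 CPM in WT libraries. The fitted log2 fold change, KO over WT, was -9.47 in males and -8.56 in females, with adjusted p = 0.00344 and 0.00499 in edgeR's quasi-likelihood test. Between 50919885 and 71956309 counts fell on genes in a library, and a count of 3 was worth between 0.0421 and 0.0587 CPM. Of 10 C-LTMR markers, 9 were detected in every library and Rorb had no count in any. Th lay between 2976 and 5359 CPM, Fam19a4 between 222.2 and 426.3 CPM, and Slc17a8 between 30.9 and 55.0 CPM. Markers of other cells were present too, and the male KO libraries carried more of several of them, with values given beside Cnr1. In bulk samples such as these, fewer cells of a type and less RNA per cell cannot be told apart. The spread between replicates exceeded counting error, and a typical gene varied by 76.6% between libraries of a group in the edgeR fit.

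Most of these receptors are compact genes. In the GRCm38 annotation, 8 of the 9 carry their whole coding sequence in 1 exon block, against 15.9% of 21951 protein-coding genes, and Drd2 is the exception with 7 coding blocks. Cnr1 lies on chromosome 4 at chr4:33924593-33948831 on the plus strand, with 6444 bp of exons and a coding sequence of 1419 bp. Htr1d lies on the same chromosome and strand at chr4:136423524-136444398, with 3201 bp of exons and a coding sequence of 1122 bp. Adra2a is at chr19:54044151-54048982, Adra2b at chr2:127363208-127367221 and Adra2c at chr5:35278319-35281763, each a single exon on the plus strand. Htr1b is at chr9:81628291-81633828 and Htr1f at chr16:64924729-65105854, both on the minus strand. Htr1a is at chr13:105443639-105448122 and Drd2 at chr9:49340627-49408177, both on the plus strand. The longest run of identical bases between the transcripts of any pair was 26 bases, between Adra2a and Adra2c.

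Basic helix-loop-helix factors as a class bind the E-box, written CANNTG, which reads the same on both strands. An upstream window each of Cnr1 and Htr1d is shown because, among the tested receptors, Cnr1 had the largest fitted difference between KO and WT males and Htr1d the highest level. Each window is the 250 bases before a RefSeq transcript start on GRCm38.p6, plus strand, 5′ to 3′, with E-box matches in capitals. The Cnr1 window shown is chr4:33924014-33924263 with 79.2% G or C, and the Htr1d window shown is chr4:136423274-136423523 with 51.6% G or C. Each is the most upstream window of its gene, and that of Cnr1 ends before the gene span given above.
Cnr1: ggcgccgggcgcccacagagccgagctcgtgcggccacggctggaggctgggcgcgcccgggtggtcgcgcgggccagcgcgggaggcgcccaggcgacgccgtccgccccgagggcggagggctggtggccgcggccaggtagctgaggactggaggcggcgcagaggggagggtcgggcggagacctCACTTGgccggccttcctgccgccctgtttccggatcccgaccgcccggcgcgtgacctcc
Htr1d: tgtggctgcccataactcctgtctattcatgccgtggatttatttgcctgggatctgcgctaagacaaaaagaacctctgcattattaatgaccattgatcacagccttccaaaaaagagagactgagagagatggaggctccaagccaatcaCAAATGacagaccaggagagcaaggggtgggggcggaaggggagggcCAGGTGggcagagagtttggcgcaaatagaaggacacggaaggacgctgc
The Cnr1 window shown held 1 match and the Htr1d window shown held 2. Both genes have further RefSeq starts. The further Cnr1 windows, chr4:33924394-33924643 and chr4:33926130-33926379, held 1 match each. The further Htr1d window, chr4:136424362-136424611, held 1. Of 32851 windows of this length before RefSeq starts, 66.2% held at least 1 match, and the median was 1. The 9 receptor genes had 12 such windows, of which 7 held a match and 5 did not. The windows of Adra2b, Drd2, Htr1a, Htr1b and Htr1f held none. A match describes letters in a window and not a bound site.

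Htr1d was by far the most abundant of the receptors. On a scale of reads per kilobase of exon, scaled as CPM (RPKM), its lowest, median and highest values over the 8 libraries were 15.2, 17.8 and 22.4. Adra2c, the alpha-2C adrenergic receptor, came next with 0.861, 2.02 and 4.25 RPKM, and its range did not reach that of Htr1d. Htr1b followed with 0.262, 0.612 and 2.04 RPKM. Drd2 had a median of 0.482 RPKM and Adra2a one of 0.209 RPKM, and both were at 0 in at least 1 library. The median of Cnr1 was 0.203 RPKM, with values between 0.00246 and 0.853. Htr1f, Adra2b and Htr1a had medians of 0. From Adra2c downward every neighbour in this order overlapped the next.

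**Figure D1:**
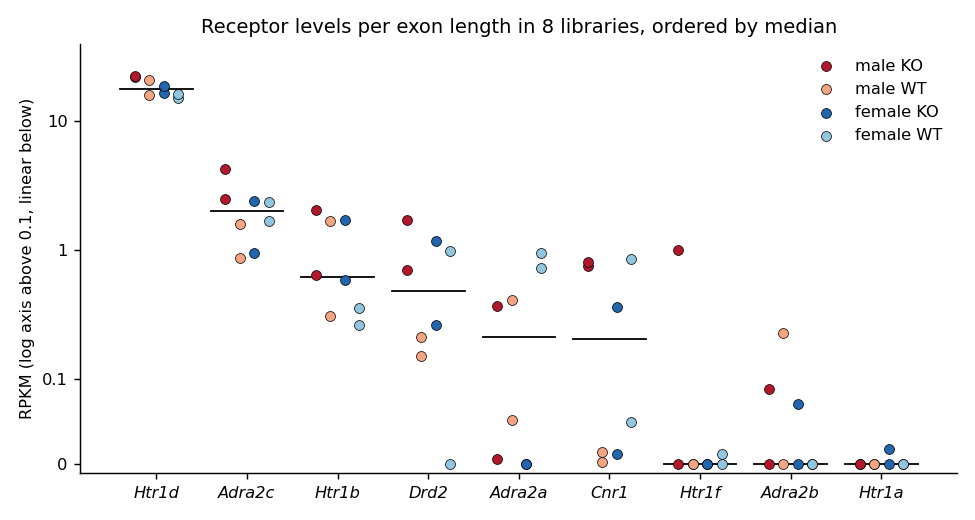
Levels of the 9 receptors in RPKM (vertical axis, logarithmic above 0.1 and linear below) in each of the 8 libraries, coloured by group, with a line at each gene's median. Htr1d, at 15.2 to 22.4 RPKM, lies above every other value, and the other 8 genes overlap their neighbours.

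Across the 7 tested receptors, KO stood above WT without overlap for 4 in males (Cnr1, Adra2c, Htr1d and Drd2), below it for 0, and 3 overlapped. Of all 22013 tested genes, 14.5% stood above WT and 14.5% below it in males. In females 2 receptors stood above WT (Htr1b and Htr1d), Adra2a stood below it, and 4 overlapped, where 14.2% of all tested genes stood above and 15.1% below. In edgeR 0 of the 7 were called in either sex, against 0.00454% of tested genes, which is Bhlha9 alone. An unadjusted p below 0.05 was reached by 770 genes (3.5%) in males and 838 genes (3.81%) in females, among them Cnr1 in males and Adra2a in females. DESeq2 called 0.843% of the genes it tested in males, of which Cnr1 was one, and 0.668% were called higher. In females it called 0.83%, of which Adra2a was one, and 0.478% were called lower. DESeq2 gave an adjusted p for 6 of the 7 in each sex and none for Adra2b. The counts do not cover all 9 receptors, since a gene low in most libraries enters the tests through the libraries where it is high.

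The median log2 fold change over the 7 tested receptors was 0.43 in males, beside 0.02 over all tested genes, with 5 of 7 above 0 against 51.9% of all. In females it was 0.17, beside 0 over all genes, with 4 of 7 above 0 against 49.0% of all. It was 0.17 too with Adra2a and Adra2b, each at 0 in a whole female group, placed at the bound that 3 counts per library allow.

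**Figure D2:**
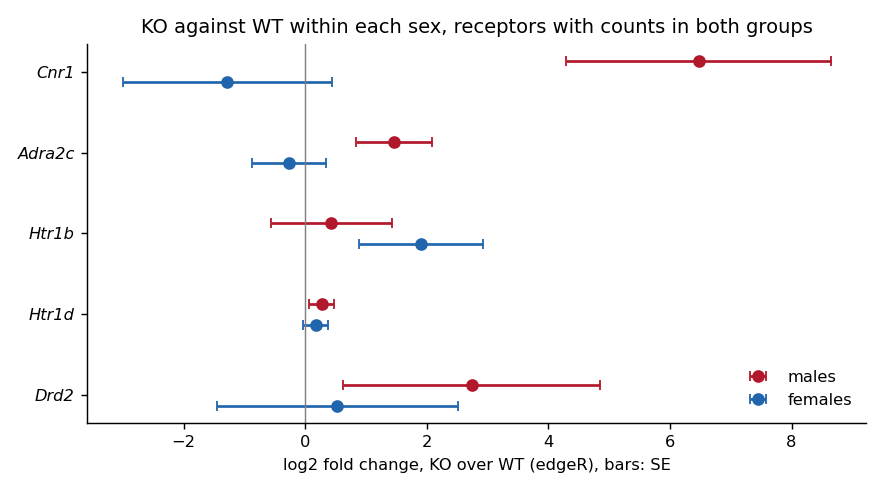
Log2 fold change, KO over WT, from the edgeR fit for the 5 receptors with counts in every group (points, males above females, bars 1 SE). Cnr1 in males sits at 6.47 with a bar of 2.18 and in females at -1.28, while both Htr1d points lie within 0.27 of 0.

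Cnr1, which encodes the CB1 cannabinoid receptor, was higher in KO than in WT males in every library. It had 4.87 and 5.24 CPM in male KO libraries, from 281 and 340 counts, against 0.0159 and 0.0943 CPM in male WT libraries, from 1 and 6 counts. The male KO libraries lay close together and the groups did not overlap. The pooled ratio was 91.7, with a 95% exact interval of 44.2 to 229. That interval pools the libraries of a group and treats reads as independent. It leaves out the spread between replicates and, without molecular identifiers, the copies made in amplification. The fitted log2 fold change, KO over WT, was 6.47 ± 2.18 (SE), and it lay between 5.71 and 8.11 when 1 library was left out. In edgeR's quasi-likelihood test the unadjusted p was 0.0219 and the adjusted p was 1. DESeq2 called the gene, with a log2 fold change of 6.53 and adjusted p = 0.0188. In the authors' deposited table for males Cnr1 was listed with a log2 fold change of 1.66 ± 0.36 (SE) and an adjusted p of 0.00143, as the only receptor of the 9 among its 150 genes. The header of the authors' deposited table does not state its direction, and KO over WT is read from Bhlha9, listed there at -7.40. The submitters' processing notes name an earlier version of DESeq2 than the one used here. Whether both versions report fold changes on the same scale was not tested. The size of the authors' value for Cnr1 is therefore not compared with 6.47 or 6.53.

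In females Cnr1 differed more within each genotype than between them. It had 0.0783 and 2.30 CPM in female KO libraries, from 4 and 164 counts, against 0.318 and 5.50 CPM in female WT libraries, from 18 and 347 counts. Each female group held a low and a high library, and the groups overlapped. The log2 fold change was -1.28 ± 1.72 (SE), with edgeR's unadjusted p = 0.480 and adjusted p = 1. Without female WT replicate 2 it was 1.91, so that library set its sign. No receptor of the 9 was among the 13 genes of the authors' deposited table for females.

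The Cnr1 effect, male minus female, differed by 7.75 ± 2.72 (SE) on the log2 scale. The unadjusted p of that difference was 0.0258 and the adjusted p 0.980 in edgeR's quasi-likelihood test, and DESeq2 gave adjusted p = 0.0643. In WT libraries alone, males stood below females by a log2 difference of -5.67 ± 2.10 (SE), with adjusted p = 0.903 in edgeR and 0.0782 in DESeq2. Without female WT replicate 2 this value was -2.48 and the difference in the KO effect was 4.56. Without female KO replicate 2 the difference in the KO effect was 11.65. The 2 comparisons share the male and female WT libraries. Between males and females in WT, 0 genes of 22013 passed in edgeR, 977 (4.44%) had an unadjusted p below 0.05 and DESeq2 called 140 (0.72%). For the difference in the KO effect 0 genes passed in edgeR, 1041 (4.73%) had an unadjusted p below 0.05 and DESeq2 called 217 (1.12%).

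The summed markers of several other cell types stood higher in male KO than in male WT libraries. Abundant genes weigh most in such sums. In male KO libraries the peptidergic marker Calca had 578.7 and 910.2 CPM, against 59.4 and 88.4 CPM in male WT libraries. The myelinated marker Nefm had 3764 and 1496 CPM, against 953 and 928.5 CPM, and the glial marker Apoe 3035 and 1988 CPM, against 1951 and 345.1 CPM. Calcb and Mbp, also abundant, overlapped in males. The 10 peptidergic nociceptor markers summed to 1545 and 2159 CPM in male KO libraries, against 714.3 and 757.3 CPM in male WT libraries. All 10 were tested, and Trpv1 had no count in male WT replicate 1. In males 5 lay above WT and none below without overlap, beside 14.5% of all tested genes above and 14.5% below. In females the same markers summed to 1568 and 507.8 CPM in KO libraries, against 1236 and 2040 CPM in WT libraries. The female KO library with the lower sum had the higher Cnr1 of its group, and the female WT library with the higher sum had the higher Cnr1.

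The 10 myelinated afferent markers summed to 5945 and 2113 CPM in male KO libraries, against 1455 and 1292 CPM in male WT libraries. Of the 9 tested, 4 lay above WT and 1 below without overlap in males, and Runx3 and Calb1 were at 0 in some libraries. The 10 glial markers summed to 3940 and 2744 CPM in male KO libraries, against 2602 and 906.1 CPM in male WT libraries, with 7 above WT and none below without overlap. Over all tested genes the shares without overlap in males were 14.5% above WT and 14.5% below. Vascular and fibroblast markers summed to 73.2 and 24.1 CPM in male KO libraries, against 16.5 and 2.85 CPM in male WT libraries. Nonpeptidergic nociceptor markers overlapped, at 110.2 and 399.1 CPM in male KO libraries, against 101.5 and 144.7 CPM in male WT libraries. Immune markers summed to 18.3 and 14.3 CPM in male KO libraries, against 21.4 and 22.9 CPM in male WT libraries. The C-LTMR markers summed to 4676 and 6514 CPM in male KO libraries, against 7271 and 7063 CPM in male WT libraries. Lower C-LTMR sums and higher sums of the peptidergic, myelinated, glial and vascular lists thus came with the higher Cnr1 of male KO libraries. In females glial markers summed to 1208 and 2735 CPM in KO libraries, against 2565 and 3058 CPM in WT libraries. In each female group the library with the higher Cnr1 also had the higher glial sum and the higher vascular and fibroblast sum. It had the lower myelinated, nonpeptidergic and immune sums of its group. The C-LTMR markers summed to 6310 and 7943 CPM in female KO libraries, against 7245 and 6076 CPM in female WT libraries. The library with the higher Cnr1 thus had the higher C-LTMR sum in female KO and the lower one in female WT. The part of these cells in the Cnr1 result was not tested.

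**Figure D3:**
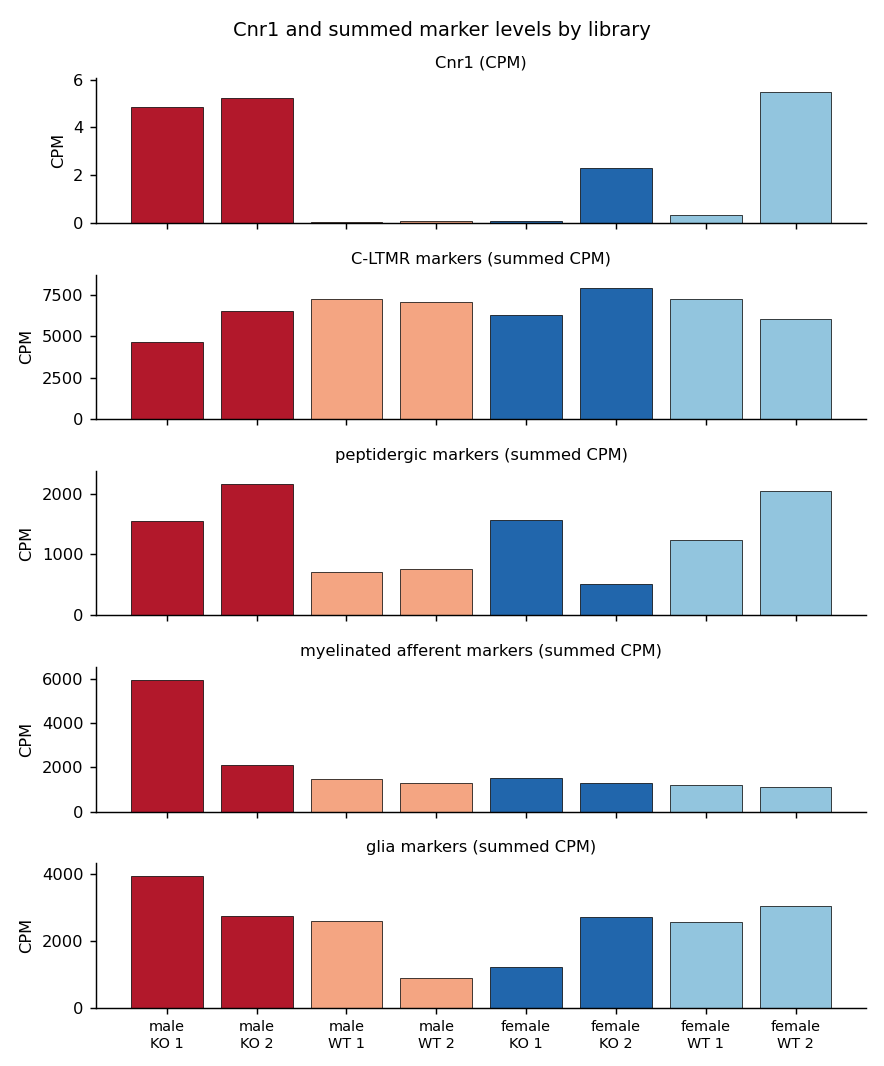
Cnr1 (top, CPM) and the summed CPM of C-LTMR, peptidergic, myelinated afferent and glial markers (lower panels), 1 bar per library, KO left of WT within each sex. Both male KO libraries are high in Cnr1 (4.87 and 5.24 CPM) and in peptidergic markers (1545 and 2159 CPM), while in females the high Cnr1 libraries are replicate 2 of each group.

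The alpha-2 adrenergic receptors bind noradrenaline. Adra2a, the alpha-2A receptor, was detected in female WT libraries and not in female KO libraries. No count fell on it in either female KO library, where 3 counts would be 0.0587 and 0.0421 CPM. The female WT libraries had 3.53 and 4.55 CPM, from 200 and 287 counts. Set against that floor of 3 counts per library, the level counted in female KO libraries was at least 80.1-fold lower than the WT mean of 4.04 ± 0.719 CPM (SD, n = 2). That bound covers the counting of reads only, and not the spread between replicates or uneven amplification. The edgeR test gave an unadjusted p of 0.0109 and an adjusted p of 1 for females. DESeq2 called the gene lower, with adjusted p = 0.00250. Of the 10 peptidergic markers, 8 stood below WT without overlap in females, against 15.1% of all tested genes, while the sums given beside Cnr1 overlapped. Vascular and fibroblast markers summed to 2.51 and 11.4 CPM in female KO libraries, against 34.2 and 37.2 CPM in female WT libraries, with 1 of 7 tested markers below WT without overlap. The part of these cells in the Adra2a result was not tested.

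In males Adra2a varied within both genotypes. It had 1.77 and 0.0308 CPM in male KO libraries, against 1.98 and 0.252 CPM in male WT libraries. A high and a low library stood in each group and the groups overlapped. Peptidergic markers summed to 1545 and 2159 CPM in male KO libraries, against 714.3 and 757.3 CPM in male WT libraries. In each male group the library with the higher sum had the lower Adra2a, while in female WT it had the higher Adra2a. The fitted log2 difference was -0.31 ± 1.79 (SE), with edgeR's adjusted p = 1, and over the fits that left out 1 library it lay between -5.09 and 1.82, positive without male KO replicate 2 or male WT replicate 1. The effect, male minus female, differed with an unadjusted p of 0.0202 and an adjusted p of 0.980 in edgeR, and DESeq2 gave adjusted p = 0.0560. Levels near 0 in 1 replicate and clearly above it in the other were common in these libraries. Of the detected genes, those at 0 in 1 library of a group with 20 or more counts in its partner came to 6.91% in male KO, 5.03% in male WT, 6.63% in female KO and 7.24% in female WT libraries.

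Adra2b, the alpha-2B receptor, was one of those genes. It had 0 and 0.355 CPM in male KO libraries, against 0 and 0.912 CPM in male WT libraries. In females it had 0 and 0.281 CPM in KO libraries, against 0 CPM in both WT libraries. In each sex the groups overlapped, and the 3 libraries with counts were all replicate 2 of their group. The male log2 fold change was -1.35 ± 3.28 (SE), with edgeR's adjusted p = 1.

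Adra2c was the adrenergic member with counts well above the floor in every library. It had 8.62 and 14.7 CPM in male KO libraries, against 2.97 and 5.50 CPM in male WT libraries. Both male KO libraries stood above both male WT libraries. The log2 fold change was 1.46 ± 0.62 (SE), with an unadjusted p of 0.0522 and an adjusted p of 1 in edgeR, and DESeq2 gave adjusted p = 0.630. The female levels were 8.30 and 3.29 CPM in KO libraries, against 8.17 and 5.77 CPM in WT libraries, and the groups overlapped. The female log2 fold change was -0.27 ± 0.61 (SE), and it lay between -1.08 and 0.25 when 1 library was left out, with 0.25 without female KO replicate 2 and 0.00 without female WT replicate 1. The effect, male minus female, differed by 1.72 ± 0.86 (SE), with adjusted p = 0.980 in edgeR. The male WT libraries were the lowest group mean, at 4.23 ± 1.79 CPM, beside 11.6 ± 4.26 CPM in male KO, 5.79 ± 3.55 CPM in female KO and 6.97 ± 1.70 CPM in female WT libraries (SD, n = 2 each).

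**Figure D4:**
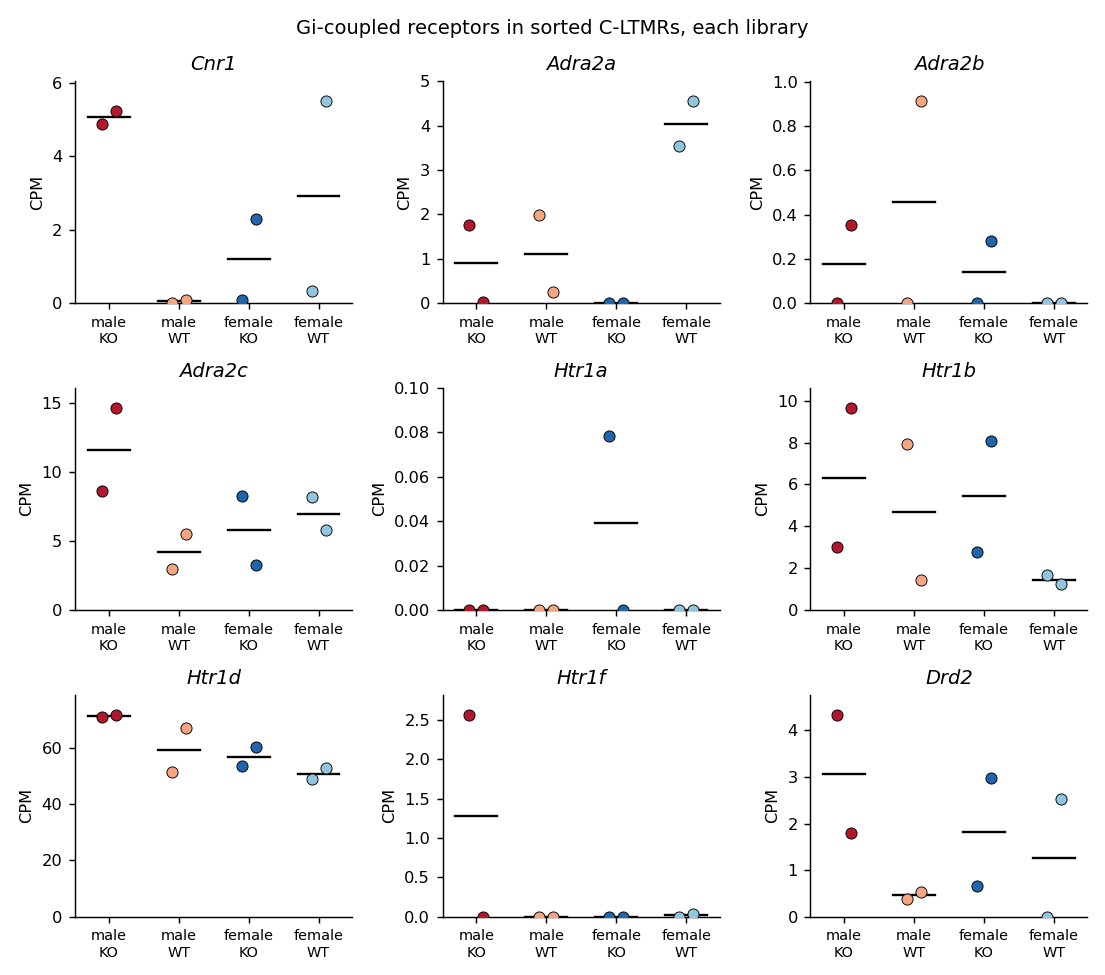
CPM of the 9 receptors, 1 panel per gene, with a point for each library and a line at the mean of its group (male KO, male WT, female KO, female WT). Cnr1 is near 0 in both male WT libraries, Adra2a is at 0 in both female KO libraries, and Htr1d stays between 48.7 and 71.6 CPM throughout.

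Among the serotonin receptors, Htr1d was high and steady. It encodes the 5-HT1D receptor, a target of the triptan drugs on sensory neurons. It had 70.8 and 71.6 CPM in male KO libraries, against 51.4 and 66.9 CPM in male WT libraries. In females it had 53.6 and 60.1 CPM in KO libraries, against 48.7 and 52.6 CPM in WT libraries. KO libraries stood above WT libraries in both sexes, by small amounts. The fitted log2 difference was 0.27 ± 0.20 (SE) in males and 0.17 ± 0.20 (SE) in females, each with edgeR's adjusted p = 1. Without male WT replicate 1 the male value was 0.09, and without male WT replicate 2 it was 0.44. Without female KO replicate 2 the female value was 0.08, and without female WT replicate 1 it was 0.11. Across both sexes it was 0.22 ± 0.13 (SE), with an unadjusted p of 0.135 and an adjusted p of 1 in edgeR, in a comparison where 3.56% of genes had an unadjusted p below 0.05. Without male WT replicate 1 it was 0.13. Of all tested genes, 1.92% had KO above WT without overlap in both sexes.

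Htr1b encodes the 5-HT1B receptor, the close relative of 5-HT1D. It had 2.999 and 9.65 CPM in male KO libraries, against 7.91 and 1.45 CPM in male WT libraries. The male groups overlapped, with a high and a low library in each. The female levels were 2.78 and 8.08 CPM in KO libraries, against 1.66 and 1.24 CPM in WT libraries, and both KO libraries stood above both WT libraries. The log2 fold change was 0.43 ± 0.99 (SE) in males and 1.91 ± 1.02 (SE) in females, each with edgeR's adjusted p = 1. The male value lay between -0.67 and 2.12 when 1 library was left out, and was negative without male KO replicate 2 or male WT replicate 2. The female value was 0.94 without female KO replicate 2. Htr1b shares 852 bp of exon with D430036J16Rik on the opposite strand. That gene had 45 and 363 counts in male KO libraries, 168 and 53 in male WT, 0 and 145 in female KO, and 64 and 99 in female WT libraries. Reads were counted without regard to strand and in every gene they touched, so reads from the shared stretch cannot be told apart.

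The other serotonin members were all but absent. Htr1a, the 5-HT1A receptor, had 4 counts in female KO replicate 1, worth 0.0783 CPM, and none in the other 7 libraries. Htr1f, the 5-HT1F receptor, had 148 counts, worth 2.57 CPM, in male KO replicate 1 and 2 counts, worth 0.0317 CPM, in female WT replicate 2. Its other 6 libraries had none. Neither gene passed the filter on low counts, so neither was tested.

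Drd2, the D2 dopamine receptor, was low and uneven. It had 4.33 and 1.79 CPM in male KO libraries, against 0.381 and 0.535 CPM in male WT libraries. Both male KO libraries stood above both male WT libraries, and the KO libraries differed from each other more than the WT libraries did. The fitted log2 difference was 2.74 ± 2.11 (SE), with edgeR's unadjusted p = 0.237 and adjusted p = 1. In females it had 0.666 and 2.98 CPM in KO libraries, against 0 and 2.52 CPM in WT libraries. A low and a high library stood in each female group, the high one being replicate 2 in both, and the groups overlapped. The female log2 fold change was 0.53 ± 1.98 (SE), and it lay between -0.92 and 9.80 when 1 library was left out. It was -0.92 without female KO replicate 2, -0.47 without female WT replicate 1 and 9.80 without female WT replicate 2.

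Genes that make, degrade or pass on the signals of these receptors were taken from 7 further lists of 72 genes, of which 54 were tested. In edgeR 0 were called in either sex, beside 0.00454% of all tested genes. An unadjusted p below 0.05 in edgeR was reached by 5 in males and 1 in females, beside 3.5% and 3.81% of all tested genes. The 5 in males include Htr3b and Htr2a, which passed the filter on low counts through male KO libraries, Htr2a in part. DESeq2 called 1 in males and 0 in females, beside 0.843% and 0.83% of the genes it tested. In males 10 stood above WT without overlap and 12 below, beside 14.5% of all tested genes above and 14.5% below. In females 4 stood above and 12 below, beside 14.2% and 15.1%.

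The cannabinoid list held 11 genes, of which 9 were tested. It covers Cnr2, which encodes the CB2 receptor and had no count in any library, and the enzymes that build and break down endocannabinoids. Mgll, the lipase that degrades the endocannabinoid 2-arachidonoylglycerol, had 242.1 and 337 CPM in male KO libraries, against 479.7 and 355.6 CPM in male WT libraries. The female levels were 388.3 and 403.9 CPM in KO libraries, against 440.4 and 435.4 CPM in WT libraries. KO libraries stood below WT libraries in both sexes. Its log2 fold change was -0.53 ± 0.22 (SE) in males and -0.14 ± 0.22 (SE) in females, each with edgeR's adjusted p = 1. Abhd12, another lipase, lay between 236.1 and 356.6 CPM, and the synthetic enzymes Daglb and Dagla between 69.5 and 104.4 CPM and between 3.17 and 7.77 CPM. Cnrip1, which encodes a protein that binds the tail of CB1, lay between 38.7 and 77.0 CPM. In females Dagla had 3.17 and 4.82 CPM in KO libraries, against 5.58 and 5.12 CPM in WT libraries, and Cnrip1 had 49.9 and 38.7 CPM in KO libraries, against 61.1 and 51.5 CPM in WT libraries. In males both genes overlapped between KO and WT libraries. The median log2 fold change over the 9 was -0.03 in males and -0.04 in females.

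Of the 6 other adrenergic receptors 4 were tested, and Adrb1, the beta-1 receptor, had the highest median, 3.92 RPKM. It had 9.67 and 6.15 CPM in male KO libraries, against 9.74 and 12.3 CPM in male WT libraries. In females it had 16.1 and 14.2 CPM in KO libraries, against 20.01 and 17.4 CPM in WT libraries. KO stood below WT in both sexes, with log2 fold changes of -0.48 ± 0.35 (SE) and -0.30 ± 0.34 (SE) and edgeR's adjusted p = 1 for each.

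Of the 10 other serotonin receptor genes 7 were tested. In males Htr2a, Htr3a, Htr3b, Htr5a and Htr7 stood above WT without overlap, which is 5 of the 7, and none stood below, beside 14.5% of all tested genes above and 14.5% below. Htr3b passed the filter on low counts through its male KO libraries, so its place in that count follows from the filter. Htr2a passed it through its male KO libraries and female KO replicate 1, so its place follows from the filter in part. In females Htr5b stood above and Htr7 below, beside 14.2% of all tested genes above and 15.1% below. Htr3a, a subunit of the serotonin-gated ion channel, had 6.95 and 118.7 CPM in male KO libraries, against 5.39 and 2.22 CPM in male WT libraries. The female levels were 53.3 and 0.0702 CPM in KO libraries, against 0.106 and 15.0 CPM in WT libraries. A single library of each KO group carried most of it. Htr5b, which is a pseudogene in humans, had 28.03 and 54.7 CPM in male KO libraries, against 54.6 and 61.2 CPM in male WT libraries. In females Htr5b had 60.1 and 70.2 CPM in KO libraries, against 43.3 and 49.0 CPM in WT libraries, a log2 fold change of 0.50 ± 0.32 (SE) with edgeR's adjusted p = 1. Htr4, the 5-HT4 receptor, lay between 1.76 and 11.7 CPM and overlapped in both sexes. Htr5a, the 5-HT5A receptor, had 1.89 and 4.50 CPM in male KO libraries, against 1.57 and 1.54 CPM in male WT libraries. Female Htr5a levels overlapped, at 0.685 and 0.548 CPM in KO libraries, against 2.03 and 0.111 CPM in WT libraries.

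Htr7, which encodes the 5-HT7 receptor, was the gene that DESeq2 called in males, and it is named because of that call. It had 4.68 and 1.20 CPM in male KO libraries, against 0 CPM in both male WT libraries. In females it had 0 CPM in both KO libraries, against 0.229 and 1.65 CPM in WT libraries. The groups did not overlap in either sex and lay in opposite order. DESeq2 gave adjusted p = 0.0094 in males, 0.0713 in females and 5.8e-05 for the difference between the sexes, where edgeR gave adjusted p = 1, 1 and 0.980. As with Adra2a in females, whole groups had no count. Htr2a, the 5-HT2A receptor, and Htr3b, a partner subunit of Htr3a, were likewise picked after their values were seen. Htr2a had 2.18 and 0.586 CPM in male KO libraries, against 0 CPM in both male WT libraries. Female Htr2a levels overlapped, at 1.72 and 0 CPM in KO libraries, against 0.0706 and 0.0158 CPM in WT libraries. Htr3b had 1.51 and 4.26 CPM in male KO libraries, against 0 and 0.0314 CPM in male WT libraries, and in females 0.0392 and 0 CPM in KO libraries, against 0 CPM in both WT libraries. Peptidergic markers summed to 1545 and 2159 CPM in male KO libraries, against 714.3 and 757.3 CPM in male WT libraries. In females they summed to 1568 and 507.8 CPM in KO libraries, against 1236 and 2040 CPM in WT libraries. Those female WT libraries had counts of Htr7, but Htr2a was at 0.0706 and 0.0158 CPM and Htr3b at 0 CPM. The part of these markers' cells in the 3 genes' values was not tested.

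The list of G protein subunits and RGS proteins held 20 genes, of which 19 were tested. Its median log2 fold change was 0.02 in males and -0.03 in females. In males 3 stood above WT and 5 below without overlap, beside 14.5% of all tested genes above and 14.5% below. In females 2 stood above and 6 below, beside 14.2% and 15.1%. Rgs4, which shortens Gi/o signals by speeding GTP hydrolysis, had the highest median, 574.2 RPKM, followed by Rgs10 with 492.8 RPKM and the gamma subunit gene Gng3 with 310.5 RPKM. In CPM, Rgs4 lay between 1301 and 2584, Rgs10 between 659.8 and 1005, and Gng3 between 416.7 and 646.4. Rgs7, a regulator of the same class that works with the beta subunit Gnb5, had 27.1 and 43.7 CPM in male KO libraries, against 6.17 and 8.41 CPM in male WT libraries. Both male KO libraries stood well above both male WT libraries. The log2 fold change was 2.28 ± 0.80 (SE), with edgeR's unadjusted p = 0.0258 and adjusted p = 1. In females Rgs7 had 8.99 and 8.19 CPM in KO libraries, against 15.1 and 2.38 CPM in WT libraries, and the groups overlapped.

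Rgs17, which acts on Gi/o and Gz subunits, had 35.4 and 25.2 CPM in male KO libraries, against 21.5 and 9.56 CPM in male WT libraries. The female levels were 19.3 and 14.6 CPM in KO libraries, against 29.3 and 23.4 CPM in WT libraries. The order of the genotypes was opposite in the sexes without overlap in either. The effect, male minus female, differed by 1.6 on the log2 scale, with an unadjusted p of 0.0359 and an adjusted p of 0.980 in edgeR. Gnb4, a beta subunit gene, had 42.1 and 104.2 CPM in male KO libraries, against 42.0 and 39.5 CPM in male WT libraries, so that 1 library carried the difference. Female Gnb4 levels overlapped, at 40.5 and 27.3 CPM in KO libraries, against 42.3 and 28.6 CPM in WT libraries.

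Of the 7 effector channels 6 were tested. The potassium channel subunit gene Kcnj3 had 7.23 and 4.41 CPM in male KO libraries, against 1.24 and 0.0629 CPM in male WT libraries, and in females 0.431 and 0 CPM in KO libraries, against 0.141 and 1.93 CPM in WT libraries. The male groups did not overlap and the female groups did. The male log2 fold change was 3.16 ± 2.23 (SE), with edgeR's adjusted p = 1. Its partner Kcnj6 had 6.22 and 6.94 CPM in male KO libraries, against 9.82 and 11.2 CPM in male WT libraries, a log2 fold change of -0.67 with edgeR's adjusted p = 1. Female Kcnj6 levels overlapped, at 24.6 and 5.44 CPM in KO libraries, against 7.87 and 4.64 CPM in WT libraries, with a log2 fold change of 1.26 and edgeR's adjusted p = 1. Per exon length the presynaptic calcium channel genes were higher, with medians of 4.41 RPKM for Cacna1a and 6.88 RPKM for Cacna1b, against 0.970 RPKM for Kcnj6 and 0.160 RPKM for Kcnj3. Cacna1b lay between 53.2 and 117.6 CPM. In males Cacna1a had 40.9 and 35.5 CPM in KO libraries, against 54.7 and 55.3 CPM in WT libraries, with a log2 fold change of -0.52 ± 0.28 (SE) and edgeR's adjusted p = 1. Female Cacna1a levels overlapped, at 68.9 and 39.8 CPM in KO libraries, against 56.3 and 53.8 CPM in WT libraries.

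The supply of monoamines was represented by 14 genes, of which 8 were tested. Th, the first enzyme of catecholamine synthesis, had 2976 and 4139 CPM in male KO libraries, against 4853 and 4483 CPM in male WT libraries, and 3797 and 5359 CPM in female KO libraries, against 4863 and 4031 CPM in female WT libraries. The male log2 fold change was -0.39 ± 0.24 (SE), with edgeR's adjusted p = 1. Dbh, which turns dopamine into noradrenaline, and the transporters Slc6a2 and Slc6a3 had no count in any library. Tph2, which makes the precursor of serotonin, had 2.81 and 4.58 CPM in male KO libraries, against 10.8 and 8.73 CPM in male WT libraries. Both male KO libraries stood below both male WT libraries, with a log2 fold change of -1.40 ± 0.68 (SE) and edgeR's adjusted p = 1. Female Tph2 levels overlapped, at 2.23 and 8.71 CPM in KO libraries, against 5.89 and 5.02 CPM in WT libraries, with a log2 fold change of 0.00. Maoa, which degrades monoamines, lay between 50.5 and 121.2 CPM.

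**Figure D5:**
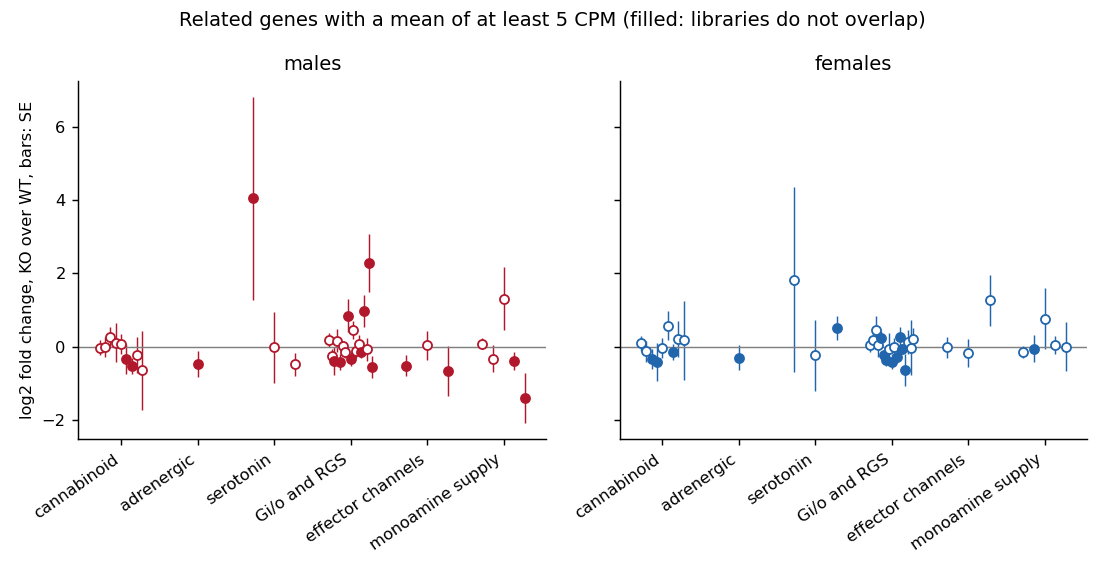
Log2 fold change, KO over WT, from the edgeR fit (vertical axis, bars 1 SE) for 38 related genes with a mean of at least 5 CPM, in males (left) and females (right), by list. Filled points mark genes whose KO and WT libraries do not overlap, 16 in males and 14 in females, and values run from -1.40 to 4.04 in males and from -0.64 to 1.82 in females. Of all tested genes, 14.5% stood above WT and 14.5% below without overlap in males, and 14.2% and 15.1% in females.

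Genes whose levels over the 8 libraries were most like each receptor were ranked among 15992 genes, by the root mean square difference of log2 CPM after centring each gene on its own mean. Htr1d had the closest neighbours, with Mapk10, Snx2, Nup93 and Arhgef28 at 0.09 and Kmt2e at 0.10. Adra2c came next, with Abat at 0.19, Ift74 and Cd55 at 0.27, Zfp804a at 0.28 and Zfp24 at 0.30. For Htr1b the nearest were Il12rb2 at 0.50 and Slc1a2 at 0.59, and for Drd2 Gbp2 at 0.73 and Hspb6 at 0.74. Adra2a was nearest to Col7a1 at 0.87, followed by Apold1 and Gal at 1.40. Cnr1 was nearest to Col8a1 at 1.15, followed by Pcdh17 at 1.38, Slc16a13 at 1.39, Pcolce at 1.40 and B230206H07Rik at 1.51. Genes that vary little, such as Htr1d, have small distances to many others, so these values rank neighbours of a receptor and do not compare receptors.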

How the data were processed

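The deposited table holds whole-number read counts per gene for 8 libraries and gene lengths in bp. Counting used featureCounts 1.6.1 and exons of Ensembl release 97 for GRCm38, per the file headers, without strand and in every gene a read overlapped. Also in the submitters' processing notes are bcl2fastq 2.17.1.14, DESeq2 1.14.1 and Subread 1.6.4. For the aligner, the sources used here give no name. Per the labels' protocols, cDNA was made from 500 pg of total RNA by the SMART-Seq v4 kit (13 PCR cycles), and Nextera XT libraries took 12 more. Such amplification multiplies rare molecules unevenly. The authors' deposited tables for each sex hold a log2 fold change and p-values, for genes past 5% only.

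Genes were kept by filterByExpr and scaled with TMM factors (0.9793 to 1.022). They were tested with edgeR 4.0.16 in R 4.3.3, by the two-sided quasi-likelihood F test in a fit of 4 groups over all 8 libraries with 4 residual degrees of freedom. For both sexes together, genotype was fitted beside sex with no interaction. The threshold was a Benjamini-Hochberg adjusted p of 0.05 over all tested genes. SE is the absolute log2 fold change divided by the square root of F. DESeq2 1.42.0 was an alternative. The method was run on simulated counts to check the sign and size of fold changes in males, and its power to call a gene is not given here. CPM used TMM-scaled library sizes, and RPKM divided them by exon length in kilobases. For likeness, log2 CPM used a prior count of 2 over genes with a mean of at least 1 CPM.

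Of the counted genes, 55394 matched a symbol by identifier in GENCODE M21 and 179 did not. All 9 receptors had the same span there. Upstream sequences are RefSeq's.

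All 9 receptors are named in every library. From each related list the text names up to 3 genes highest by CPM with a mean of at least 5, and up to 3 without overlap in a sex with the largest fold among means of at least 1 CPM. From the monoamine list, 1 gene that this rule picks is not reported here. The receptors and lists were chosen with earlier results of these data known. The submitters call the 2 libraries of a group biological replicates, and the p-values depend on that. No 2 libraries agreed within sampling noise: between replicates, chi-square over its degrees of freedom was 98.6 to 275.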

Additional observations from a re-analysis of the deposited data

How the results depend on the processing

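With DESeq2 in place of edgeR the calls, KO against WT, were 164 in males, 165 in females and 52 across both sexes. They were 217 for the difference between the sexes and 140 for male against female WT. Cnr1 in males (adjusted p = 0.0188) and Adra2a in females (adjusted p = 0.00250) were called there. Without a filter on low counts male against female WT gave 3 calls, and leaving out 1 library gave 0 to 1. With only the 4 libraries of a sex, 0 genes passed in males and 0 in females. With the replicate number as a block 0 passed in females, against 1 without it, so Bhlha9 was lost. Same-numbered libraries deviated with correlations of -0.102 to 0.109, so the numbers were not taken as pairs. With 1 library left out, signs turned for Adra2a (-5.09 to 1.82) and Htr1b (-0.67 to 2.12) in males, and for Adra2c (-1.08 to 0.25), Drd2 (-0.92 to 9.80) and Cnr1 (-5.18 to 1.91) in females. They turned in the difference between the sexes for Htr1b (-2.60 to 0.22), Htr1d (-0.08 to 0.26) and Drd2 (-7.07 to 3.66), and in male against female WT for Drd2 (-2.45 to 7.81). The cause was not tested. Of the receptors' log2 fold changes under alternatives, 13 turned sign, 2 were newly called and 357 kept sign and side. A count of 3 was worth at most 0.0587 CPM, and lower levels could not be told from 0.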
